A study of Homo sapiens with 2 samples.

Results

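The genes described here encode the primase, subunits of the replicative DNA polymerases and the sliding clamp PCNA. The measurement is the binding of the retinoblastoma protein Rb at their start sites. The set has 9 genes: PRIM1, PRIM2, POLA1, POLA2, POLD1, POLD3, POLE, POLE2 and PCNA. The polymerase subunit genes POLD2, POLD4, POLE3 and POLE4 are outside it, and their peaks were not analysed. A peak was assigned to a gene when its summit, the position of highest tag coverage, lay within 3 kb of the gene's start site in the genome build hg19. This gave 10 of the 9393 Rb peaks of VCaP and 9 of the 21955 Rb peaks of LNCaP on chromosomes 1 to 22 and X. Rb had been mapped by chromatin immunoprecipitation and sequencing (ChIP-seq) with 1 library in each line. VCaP and LNCaP are established prostate cancer cell lines that express the androgen receptor. Each was held for 3 days in medium with 5% charcoal-treated serum, which is poor in steroids, and was then given 10 nM of the androgen DHT for 4 h. Cells without DHT, input chromatin and further cultures were not analysed here, so that no value has a spread between cultures and no test between the lines was made.

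Rb restrains entry into S phase by binding E2F transcription factors at the promoters of genes that are needed for DNA synthesis, and it is released from them when cyclin-dependent kinases phosphorylate it. The genes of the set act together at the replication fork. Primase lays down short RNA primers, DNA polymerase alpha extends them, DNA polymerases delta and epsilon copy the lagging and the leading strand, and PCNA is the ring that tethers polymerases to DNA. Several of them, PCNA, POLA1 and PRIM1 among them, are known E2F targets, and E2F sites are commonly written as a run of T followed by a GC-rich core.

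To show where such letters lie, stretches of promoter sequence are given for the genes on which the results below turn. They are the 150 bases before the annotated start, read 5′ to 3′ on the strand of the gene, from RefSeq on the build GRCh38.p14. Capitals mark E2F-type letters, that is TTCCCGC or TTCGCGC or TTGCCGC or TTGGCGC on either strand. PRIM1 and PCNA had the highest tag coverage, POLA1, POLA2 and POLE carry such letters in this stretch, and PRIM2 had the lowest fold enrichment in both lines. For PCNA both annotated starts are shown, the upstream one first, and for PRIM2 the downstream one. Which of the 2 starts of PRIM2, POLD1 and PCNA corresponds to the hg19 start used for the peaks was not decided, so the letters shown for PCNA are not placed at its main peak.
PRIM1, chr12:56752324-56752473, minus strand: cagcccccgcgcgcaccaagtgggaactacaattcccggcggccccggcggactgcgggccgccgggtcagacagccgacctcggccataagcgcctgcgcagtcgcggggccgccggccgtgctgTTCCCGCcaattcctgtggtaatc
POLA1, chrX:24693768-24693917, plus strand: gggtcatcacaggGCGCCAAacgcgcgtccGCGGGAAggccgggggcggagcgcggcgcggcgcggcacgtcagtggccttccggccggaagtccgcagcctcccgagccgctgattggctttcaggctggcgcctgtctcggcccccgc
POLA2, chr11:65261812-65261961, plus strand: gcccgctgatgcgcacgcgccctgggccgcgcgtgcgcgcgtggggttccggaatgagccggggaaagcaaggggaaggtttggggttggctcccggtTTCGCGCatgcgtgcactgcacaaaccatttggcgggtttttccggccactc
POLE, chr12:132687343-132687492, minus strand: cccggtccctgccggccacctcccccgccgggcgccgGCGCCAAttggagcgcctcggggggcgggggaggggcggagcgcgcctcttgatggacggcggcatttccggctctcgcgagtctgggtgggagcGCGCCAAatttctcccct
PCNA, chr20:5126623-5126772, minus strand: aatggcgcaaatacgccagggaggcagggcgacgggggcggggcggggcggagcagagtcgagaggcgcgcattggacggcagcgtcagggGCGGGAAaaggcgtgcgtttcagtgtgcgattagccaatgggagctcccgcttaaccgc
PCNA, chr20:5119959-5120108, minus strand: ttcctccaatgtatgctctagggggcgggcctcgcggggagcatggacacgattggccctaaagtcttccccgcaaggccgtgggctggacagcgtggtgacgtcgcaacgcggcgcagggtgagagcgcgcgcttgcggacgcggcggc
PRIM2, chr6:57317480-57317629, plus strand: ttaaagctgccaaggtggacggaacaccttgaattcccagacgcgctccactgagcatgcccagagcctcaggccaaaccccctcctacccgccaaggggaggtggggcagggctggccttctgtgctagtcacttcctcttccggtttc

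Promoters of 8 of the 9 genes were found in the RefSeq table, with 11 annotated starts among them. PRIM2, POLD1 and PCNA each have 2 starts there, 2825, 14529 and 6664 bp apart. In the window from 250 bases before to 50 after the start, E2F-type letters were present in 6 of the 11 member windows. These were 1 in each of 6 genes, beside 13.0% of all 35116 promoters of the table. The windows with the letters had 66.0 to 73.7% G and C, and the member windows without them 38.3 to 71.0%. The median of all promoters was 58.7%. Shares of letters, here and below, were not compared at like base composition. PRIM1 holds TTCCCGC from 24 to 18 bases before its start. POLA1 has 3 matches, of which 2 lie in the printed stretch and 1 after the start. POLE has 2 in the printed stretch, POLA2 has 1, and POLE2 has 1 that spans the start. In PCNA the only match belongs to the start farther upstream, 59 to 53 bases before it, and the other PCNA start has none. No such letters were found in the PRIM2 or POLD1 windows.

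Other promoter elements were searched in the same way on both strands. The CCAAT letters were present in 5 of the 11 member windows (34.6% of all promoters) and the GC box GGGCGG in 6 of 11 (45.0%). The cell cycle element CHR, searched as TTTGAA or TTCGAA, was present in 0 of 11 (16.4% of all promoters). Some matches overlap: the CCAAT of PRIM1 begins on the last base of its E2F-type match, both CCAAT matches of POLE overlap the upstream one of its 2 E2F-type matches, and 1 GC box of PCNA runs into its E2F-type match. A match describes letters and not a bound site, and these sequences were not joined to the peak positions, which are on another build.

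Every gene of the set had an Rb peak in both lines. The count was 9 of 9 in VCaP and 9 of 9 in LNCaP, for genes chosen with earlier results of these data known. For comparison, positions within 3 kb of any Rb summit made up 1.95% of the effective genome size in VCaP and 4.36% in LNCaP. That figure is for positions anywhere in the genome. The share among start sites of all genes, where Rb peaks may be denser, was not analysed here. With the summit required within 0.5 kb of the start, 8 of 9 genes had a peak in each line, and the gene without one was PCNA.

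Most of these peaks ranked high in their lists. Enrichment is given as the authors' fold enrichment, the tag coverage at the summit over the local background of the same library. A small constant was added to both terms. Each gene is represented by its peak of highest fold. Ranks below are by fold unless another measure is named. The median over the 9 genes was 12.3 in VCaP (range 5.83 to 20.6), beside a median of 5.51 over all VCaP peaks. In LNCaP it was 14.0 (9.03 to 22.5), beside 6.00 over all peaks. A fold enrichment of at least 10 was reached at 7 of the 9 genes in VCaP, where 3.32% of all peaks reached it, and at 8 of the 9 in LNCaP, where 8.02% did. At 8 genes the peak was in the top 5% of both lists by fold, and the exception in both was PRIM2. By tags at the summit 6 genes were in the top 5% of both lists. Besides PRIM2, POLA1 was then outside it in both lines (8.19% in VCaP and 6.19% in LNCaP) and POLE2 in VCaP (8.19%). The peaks were also longer than the median of their list at 8 of 9 genes in each line, with medians of 488 bp against 313 bp in VCaP and 683 bp against 395 bp in LNCaP. The list medians are over peaks of all heights, and length was not compared at like tag counts.

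**Figure D1:**
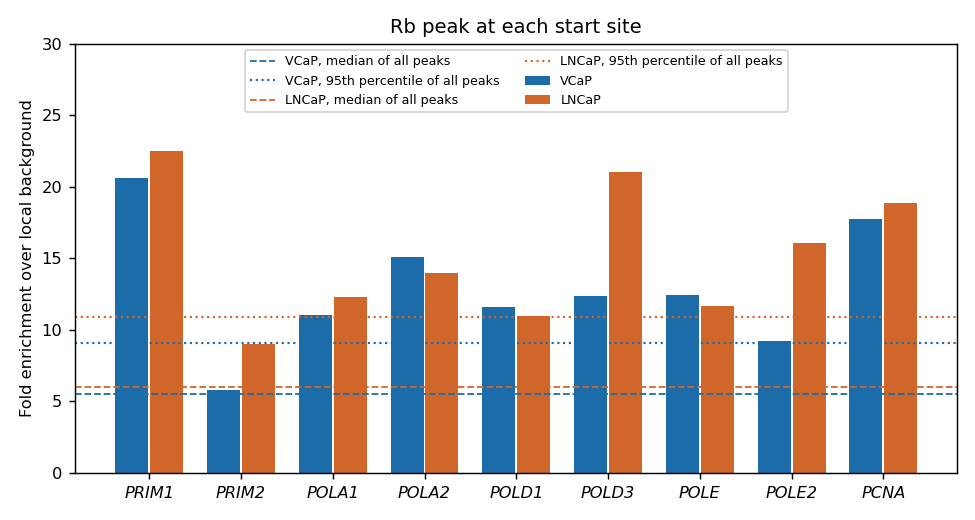
Fold enrichment (vertical axis) of the Rb peak at each of the 9 genes in VCaP (blue) and LNCaP (orange), 1 library each; dashed and dotted lines mark the median and the 95th percentile of all peaks of each list. PRIM2 lies near the median of all peaks in VCaP (5.83 against 5.51), and PRIM1 is the highest of the set in both lines (20.6 and 22.5).

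The catalytic primase subunit PRIM1 had the most enriched peak of the set by fold in both lines. In VCaP the peak at chr12:57145811-57146298 had 125 tags at its summit (exact 95% Poisson interval 104 to 149) and a fold enrichment of 20.6, rank 3 of 9393. In LNCaP the peak at chr12:57145769-57146340 had 116 tags (95.9 to 139) and a fold enrichment of 22.5, rank 2 of 21955. The summits lay 42 and 28 bp downstream of the start site. Both peaks thus sat on the start itself, among the highest of either list. Such intervals, here and below, cover counting error only.

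PRIM2, the regulatory subunit that works with PRIM1, had the least enriched peak of the set by fold in both lines. Its VCaP peak at chr6:57182287-57182521 had 14 tags (7.65 to 23.5) and a fold enrichment of 5.83, rank 3756 of 9393. Its LNCaP peak at chr6:57182250-57182598 had 15 tags (8.40 to 24.7) and a fold enrichment of 9.03, rank 2821 of 21955. The VCaP list held a second peak at PRIM2, at chr6:57181341-57181855 with its summit 738 bp upstream, 11 tags and a fold enrichment of 4.62. This was the only gene with more than 1 peak within 3 kb. The subunits of primase were thus at opposite ends of the set by fold, with tag counts at the summit whose intervals did not overlap in either line. Of the tags in the surrounding 10 kb, however, the LNCaP summit of PRIM2 had 15 of 32 (46.9%). That share was above those of POLA2, POLD1 and POLE and below those of the other genes.

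The subunits of DNA polymerase alpha lay in between. At POLA1, the catalytic subunit, the VCaP peak at chrX:24711769-24712205 had 25 tags (16.2 to 36.9) and a fold enrichment of 11.1, and the LNCaP peak at chrX:24711581-24712306 had 30 tags (20.2 to 42.8) and a fold enrichment of 12.3. At POLA2, the regulatory subunit, the VCaP peak at chr11:65029179-65029671 had 85 tags (67.9 to 105) and a fold enrichment of 15.1, rank 46. The LNCaP peak of POLA2 at chr11:65029119-65029843 had 47 tags (34.5 to 62.5) and a fold enrichment of 14.0, rank 260. PRIM1 and POLA2 were the genes of the set with more tags at the summit in VCaP, the deeper library, than in LNCaP. POLA2 was the third of the set by tags in VCaP and the fifth in LNCaP. By fold POLA1 ranked 216 in VCaP and 553 in LNCaP. In VCaP the tag counts of POLA1 and POLA2 had intervals that did not overlap, and in LNCaP the intervals overlapped.

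The genes of DNA polymerase delta differed from each other in LNCaP. POLD1, the catalytic subunit, had 33 tags (22.7 to 46.3) and a fold enrichment of 11.6 in VCaP, at chr19:50887302-50887904. In LNCaP it had 41 tags (29.4 to 55.6) and a fold enrichment of 11.0, at chr19:50887226-50887908. POLD3, an accessory subunit, had 38 tags (26.9 to 52.2) and a fold enrichment of 12.3 in VCaP, at chr11:74303460-74303838. In LNCaP POLD3 had 80 tags (63.4 to 99.6) and a fold enrichment of 21.1, rank 8 of 21955, at chr11:74303445-74303979. The ranks of POLD1 were 175 in VCaP and 1044 in LNCaP, and POLD3 ranked 131 in VCaP. The POLD1 and POLD3 peaks thus had similar tag counts in VCaP, with overlapping intervals, and intervals that did not overlap in LNCaP.

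For DNA polymerase epsilon the order of the subunits by fold enrichment was not the same in the lines. POLE, the catalytic subunit, had 43 tags (31.1 to 57.9) and a fold enrichment of 12.4 in VCaP, at chr12:133263688-133264217, and 59 tags (44.9 to 76.1) and a fold enrichment of 11.7 in LNCaP, at chr12:133263702-133264451. POLE2, its second subunit, had 25 tags (16.2 to 36.9) and a fold enrichment of 9.21 in VCaP, at chr14:50154681-50155141. In LNCaP POLE2 had 46 tags (33.7 to 61.4) and a fold enrichment of 16.1, rank 99, at chr14:50154656-50155205. POLE ranked 128 in VCaP and 753 in LNCaP, and POLE2 ranked 439 in VCaP. By tags at the summit POLE ranked 212 in VCaP and 108 in LNCaP, and POLE2 ranked 769 and 258. By tags POLE was above POLE2 in both lines, with overlapping intervals. The fold of POLE2 was above that of POLE in LNCaP, where the 10 kb window that the peak caller takes as background held 80 tags at POLE2 and 172 at POLE.

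PCNA had the most tags of the set in LNCaP and nearly as many as PRIM1 in VCaP. In VCaP its peak at chr20:5099797-5100319 had 119 tags (98.6 to 142) and a fold enrichment of 17.8, rank 15. In LNCaP its peak at chr20:5099795-5100838 had 124 tags (103 to 148) and a fold enrichment of 18.9, rank 32. By tags at the summit the LNCaP peak ranked 4 of 21955, just above PRIM1 at rank 5, and in VCaP PRIM1 and PCNA ranked 24 and 26 of 9393 by tags. The LNCaP peak was also the longest of the set, with 1044 bp.

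The order of the genes by tags at the summit, from the highest, was PRIM1, PCNA, POLA2, POLE, POLD3, POLD1, POLA1 with POLE2 at the same count, and PRIM2 in VCaP. In LNCaP it was PCNA, PRIM1, POLD3, POLE, POLA2, POLE2, POLD1, POLA1 and PRIM2. Of the 8 steps between neighbours in VCaP, 7 had overlapping intervals, and the step from POLA2 to POLE did not. In LNCaP the intervals of neighbours overlapped at all 8 steps. Across the 9 genes Spearman's rho between the lines was 0.89 for tags at the summit and 0.63 for fold enrichment, and Pearson's r for fold was 0.72. These are descriptions over 9 sites that share the same pair of libraries.

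**Figure D2:**
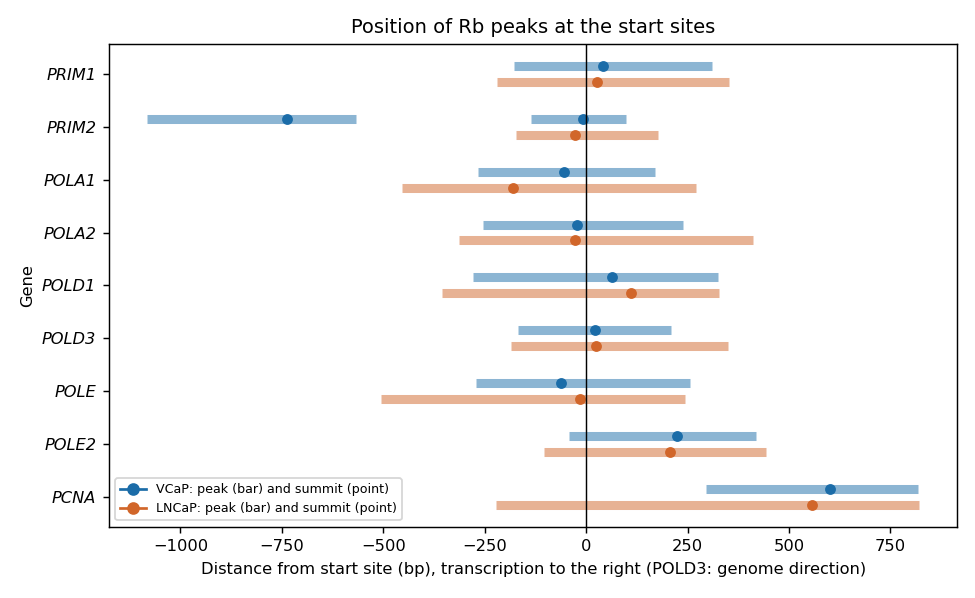
Rb peaks within 3 kb of each start site, as distance from the start in bp (horizontal axis, transcription to the right; POLD3 in genome direction, as its strand was not taken from the tables); bars are peak intervals and points are summits in VCaP (blue) and LNCaP (orange). The summits of PCNA lie 602 and 557 bp downstream, apart from the main peaks of the other genes.

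Summits lay close to the start sites, with PCNA apart. The median distance of the summit from the start was 54 bp in VCaP and 28 bp in LNCaP. It was within 100 bp at 7 genes in VCaP and at 5 in LNCaP. At PRIM2, POLA1, POLA2 and POLE the summits were upstream of the start in both lines, by 8 to 62 bp in VCaP and by 14 to 180 bp in LNCaP. At PRIM1 and POLD1 they were downstream, by 42 and 63 bp in VCaP and by 28 and 111 bp in LNCaP. At POLD3 they were 22 and 25 bp toward higher coordinates. The summits of POLE2 were 225 and 206 bp downstream and those of PCNA 602 and 557 bp downstream. The peak interval included the start site at 8 genes in VCaP, all but PCNA, and at all 9 in LNCaP. The farthest summit counted for a gene was that of the second PRIM2 peak, 738 bp from the start, and the nearest outside the 3 kb limit was 5160 bp upstream of POLE2 in VCaP, with a fold enrichment of 4.64.

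At each gene the peaks of the lines fell on the same place. All 9 pairs overlapped, whereas 71.2% of all VCaP peaks and 30.2% of all LNCaP peaks had an overlapping peak in the other list. The LNCaP peak covered the whole VCaP peak at 8 genes and 97.4% of it at POLE. The summits of the pair were a median of 20 bp apart, from 3 bp at POLD3 and 4 bp at POLA2 to 126 bp at POLA1. Over all 6688 overlapping pairs the median was 73 bp. The lists as a whole hold lower peaks, with a median of 13 tags at the summit in each. The medians over the 9 genes were 38 tags in VCaP and 47 in LNCaP. Overlap and summit distance were not compared at like tag counts.

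**Figure D3:**
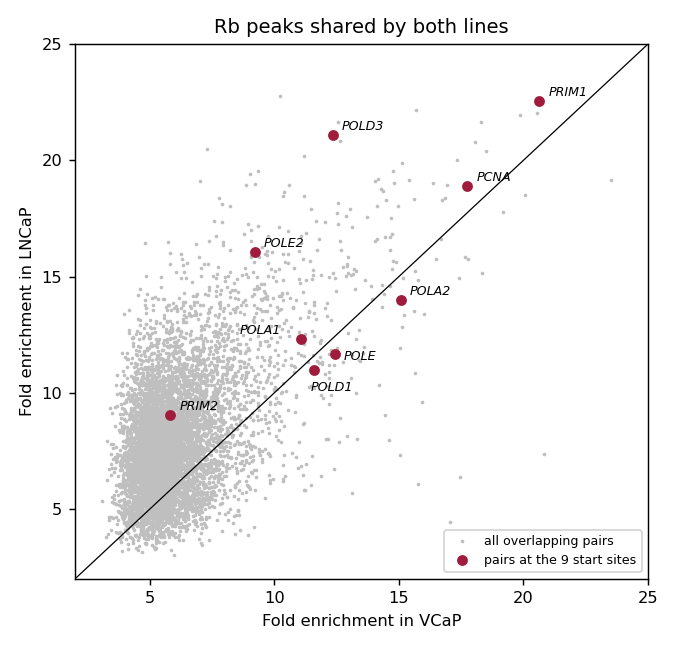
Fold enrichment in VCaP (horizontal axis) and in LNCaP (vertical axis) for all 6688 overlapping pairs of peaks (grey) and for the pairs at the 9 genes (red); the line marks equal values. PRIM1 and PCNA are high in both lines, POLD3 and POLE2 lie far above the line, and POLA2, POLD1 and POLE lie just below it.

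Fold enrichment was the higher in LNCaP at 6 of the 9 genes, beside 80.8% of all overlapping pairs. The ratio of LNCaP over VCaP had a median of 1.09 over the genes and 1.32 over all pairs (quartiles 1.07 and 1.62). The highest ratios were 1.74 at POLE2, 1.71 at POLD3 and 1.55 at PRIM2. PRIM1, POLA1 and PCNA had ratios between 1.06 and 1.11. POLA2, POLD1 and POLE had ratios of 0.927, 0.949 and 0.939. The constant added to both terms lowers folds most where the background is low. Summit tags over the tags of the 10 kb window gave ratios of 1.14, 0.913 and 0.901 at POLA2, POLD1 and POLE. That measure leaves out the constant and also the fragment length by which the caller scales the background. The fragment length was 225 bp in VCaP and 241 bp in LNCaP, and the parts of the 2 were not separated. The background is that of the same library in each case, and with 1 library per line it is not known how far these ratios vary between cultures.

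Scaled to library size, tag coverage at the summit was higher in LNCaP at all 9 genes, as at 98.7% of all overlapping pairs. The libraries held 8691938 tags in VCaP and 3671482 in LNCaP. Yet the median peak had 13 tags at its summit in both lists, and a pair needs a peak in each list. A site with like tag counts in both lists therefore has a scaled ratio above 1 from library size alone. The share and the median over all pairs carry this limit and are no neutral reference. In VCaP the 9 genes had between 1.61 tags per 1000000 at PRIM2 and 14.4 at PRIM1, and in LNCaP between 4.09 at PRIM2 and 33.8 at PCNA. The ratio of LNCaP over VCaP had a median of 2.84 over the genes and 3.35 over all pairs (quartiles 2.51 and 4.37). It was highest at POLD3, at 4.98 (exact 95% interval 3.35 to 7.54), and at POLE2, at 4.36 (2.62 to 7.40). It was lowest at POLA2, at 1.31 (0.897 to 1.89), the only gene whose interval included 1. At PRIM1 the ratio was 2.20 (1.69 to 2.85) and at PCNA 2.47 (1.90 to 3.20). The intervals of POLA2, PRIM1 and PCNA lay wholly below the median of all pairs, as at 5.55% of all pairs, and no member's lay wholly above it, as at 3.96% of all pairs. These 3 genes had the most tags in VCaP, and their intervals are the narrowest of the set relative to the ratio, so their count is not set against those shares. The interval of POLD3 did not overlap those of POLA2, PRIM1 or PCNA. These intervals compare the tag counts of this pair of libraries and not the cell lines.

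**Figure D4:**
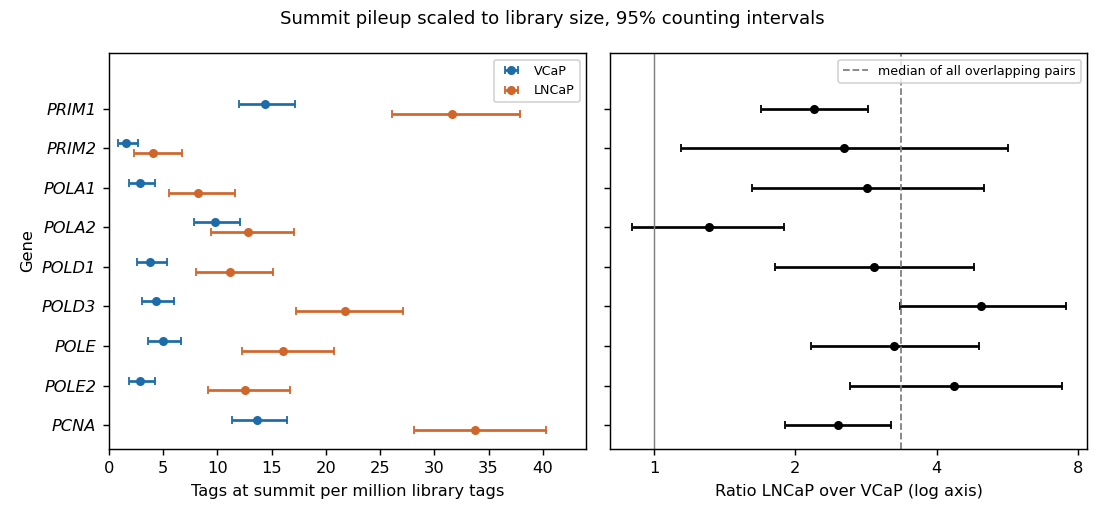
Tags at the summit per 1000000 tags of the library for each gene in VCaP (blue) and LNCaP (orange), left, and their ratio of LNCaP over VCaP on a log axis, right; bars are exact 95% counting intervals, the solid line marks equal values and the dashed line the median of all overlapping pairs, 3.35. POLA2 has the lowest ratio, 1.31, and POLD3 the highest, 4.98.

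The tags in the surrounding 10 kb, which include those of the peak, moved in part with these ratios. Scaled to library size, the window at POLA2 held 1.14 times as many tags in LNCaP as in VCaP and that at PRIM2 1.08 times, while the windows of the other 7 genes held between 1.81 times at PRIM1 and 3.60 times at POLE. With the tags of the window as the scale in place of the library, the median ratio of the summits over the 9 genes was 1.14. On that scale PRIM2 was the highest, at 2.34, followed by POLE2 at 1.86 and POLD3 at 1.71, and POLE and POLD1 turned to 0.901 and 0.913. What part the number of tags in the window had in the ratios was not tested.

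The peaks of the set took up a large part of the tags of their windows. Tags over the summit came to a median of 39.6% of the window's tags in VCaP (range 20.0 to 55.1%) and 47.6% in LNCaP (34.3 to 67.8%). Over all peaks with a background above the genome mean, the medians were 19.6% and 27.3%. These shares are computed from pileup and fold, so they follow from the folds given above and are not a separate measurement. The fragment length used by the caller was 225 bp in VCaP and 241 bp in LNCaP, which also enters the coverage at the summit. PRIM1 was the highest of the set in VCaP, with 125 of 227 tags. In LNCaP the highest were POLD3, with 80 of 118 tags, and PRIM1, with 116 of 174. PRIM2 was the lowest in VCaP, with 14 of 70 tags, in a window that also holds its second peak. In LNCaP the lowest was POLE, with 59 of 172 tags, and PRIM2 had 15 of 32. Because the tags of a peak enter its own background, the fold enrichment of sharp peaks is held down, and tag counts and folds are given side by side for this reason.

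Further Rb peaks stood within 10 kb of 4 of the start sites, and at PCNA there were 2 of them in each line. One lay 6715 bp upstream of the PCNA start in VCaP and 6697 bp upstream in LNCaP, with 21 and 44 tags and fold enrichments of 6.91 and 11.2. RefSeq lists starts of PCNA that are 6664 bp apart on GRCh38.p14, and the upstream one is that with the E2F-type letters shown earlier. Positions were not carried over between the builds, and which of these starts is the hg19 one was not decided. Neither further peak is therefore assigned to the other start. The other PCNA peak lay 7025 and 6983 bp downstream, with 11 and 27 tags and folds of 4.54 and 9.97. Scaled to library size, the ratio of LNCaP over VCaP was 4.96 (exact 95% interval 2.89 to 8.78) at the upstream peak and 5.81 (2.79 to 13.0) at the downstream peak, and both intervals overlapped that of the main PCNA peak, 1.90 to 3.20. In both lines the main PCNA peak had the most tags of the 3.

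**Figure D5:**
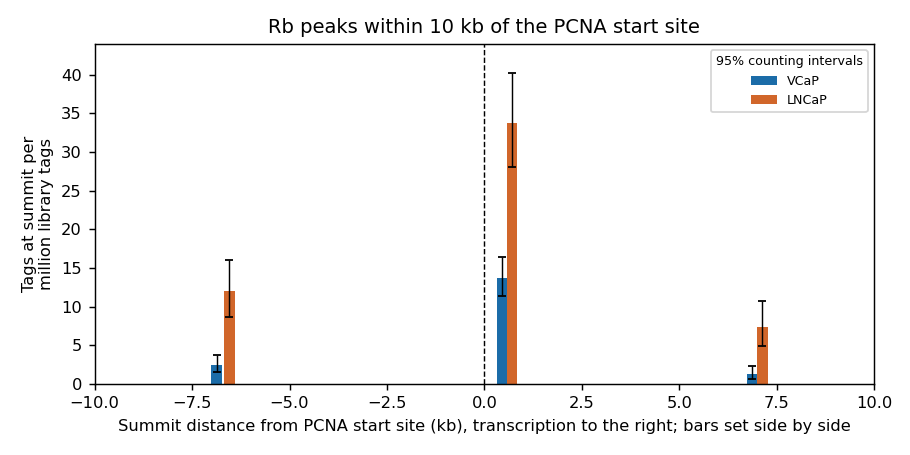
Tags at the summit per 1000000 tags of the library (vertical axis, exact 95% counting intervals) for the 3 Rb peaks within 10 kb of the PCNA start site in VCaP (blue) and LNCaP (orange), by distance from the start in kb with transcription to the right; the bars of the lines are set side by side at each summit. The main peak, just downstream of the start, is the highest in both lines.

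POLD1 had a further peak 7901 bp upstream in VCaP and 7701 bp upstream in LNCaP. It held 13 and 21 tags, with folds of 6.80 and 7.27, and its ratio scaled to library size was 3.82 (1.83 to 8.31). The peak 5160 bp upstream of POLE2 had 10 tags and was in the VCaP list alone. A peak 6905 bp upstream of PRIM2 had 5 tags and a fold enrichment of 4.12 and was in the LNCaP list alone. At PRIM1, POLA1, POLA2, POLD3 and POLE no second peak was listed within 10 kb in either line.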

How the data were processed

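Rb ChIP-seq peak lists from 1 VCaP and 1 LNCaP library were used. Peak calling by the authors treated the libraries separately and used MACS version 2.1.0.20140616, with no control file, 1 tag kept per position and a q-value limit of 0.05, per the file headers. The build is hg19, per the submitters' processing notes; the aligner is not given in the sources used here. The deposited pileup is a coverage signal in tags that is not scaled to depth. The deposited fold enrichment is a ratio to the local background with 1 tag added to both terms. The deposited −log10 p and −log10 q values come from the same caller. The tags of the 10 kb window were computed back from pileup and fold with this added tag. They came out whole within 0.05 tags for all peaks above the genome mean. The deposited summit files repeated the peak tables in all rows.

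The genes and lists were chosen with earlier results of these data known. All 9 genes are named. Start sites in hg19 of 25 other replication fork genes, a list set down for comparison, were not used. Their peaks are not analysed here. Of 21 with a RefSeq promoter, 16 hold E2F-type letters in at least 1 window, beside 6 of the 8 genes of the set. These counts are per gene, while the 13.0% of all promoters is per window. Scaled ratios have exact conditional binomial intervals. Overlap means at least 1 shared bp, with the partner of highest fold. Code was run with Python 3.11.15, pandas 2.3.3 and scipy 1.17.1 and tested on simulated data. Alternatives were other windows, limits on fold and −log10 q, overlap definitions, ranks and scales.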

Additional observations from a re-analysis of the deposited data

How the results depend on the processing

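The counts of genes with a peak, of overlapping pairs and of folds of at least 10, and the median folds, stayed within 1.5 times (counts) or 10% (medians) of the reported value under every alternative run. With a fold of at least 10 required, 7 genes had a peak in both lines, and with the start inside the interval 8 did. At a limit of 12 in place of 10, 5 genes in VCaP and 6 in LNCaP passed. The median summit ratio of LNCaP over VCaP moved from 2.84 to 1.14 when scaled to the tags of the 10 kb window, and on that scale POLD1 (0.913) and POLE (0.901) turned to below 1. The cause was not tested. Fold was the higher in LNCaP at 6 genes, tags scaled to library size at 9 and the rank percentile at 5. In the 8-letter form with a leading T, a choice made after seeing the data, E2F-type letters were in 5 of the 11 member windows, 1 in each of 5 genes, and in 3.31% of all promoters. Ranks depended on the measure: of the 18 ranks by fold, 15 moved by over 1.5 times when taken by tags and 10 when taken by −log10 q. In LNCaP the rank by tags was 108 in place of 753 at POLE, 8507 in place of 2821 at PRIM2, 406 in place of 1044 at POLD1 and 40 in place of 8 at POLD3. The search for letters around the summits was not run. No paired analysis was possible because each line has 1 library. PRIM2 rests on 14 and 15 tags.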
